A study of Mus musculus with 4 samples.

Results

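The MHC class II presentation genes examined here comprised the classical chains *H2-Aa*, *H2-Ab1* and *H2-Eb1*, the invariant chain *Cd74*, the H2-DM chains *H2-DMa*, *H2-DMb1* and *H2-DMb2*, the H2-O chains *H2-Oa* and *H2-Ob*, and the transactivator *Ciita*. They were taken by gene symbol and not by their measured values, though with earlier results of these data known. All 10 were found among the 23337 symbols of the count table. RNA-seq had been performed on medullary thymic epithelial cells (mTECs) sorted as CD45-EpCAM+UEA-1+Ly51- from thymi of 4-week-old C57BL/6 mice, with 2 libraries labelled WT and 2 labelled *Sirt6*-/-. The study's methods describe the knockout as a cross of *Foxn1*-Cre with loxP-flanked *Sirt6*, so that deletion is directed to *Foxn1*-expressing thymic epithelial cells and other cells of the thymus keep the gene. The controls lacked *Foxn1*-Cre and were littermates or age-matched WT mice. The number of animals behind each library and the exons flanked by loxP sites are not given in the sources used here. Each p-value therefore measures the spread between these libraries only.

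MHC class II molecules display peptides from endosomal and lysosomal proteolysis to CD4+ T cells. An alpha and a beta chain pair in the endoplasmic reticulum and are held and escorted by the invariant chain, which proteases later trim to the fragment CLIP. H2-DM releases CLIP and edits the bound peptide, H2-O restrains H2-DM, and CIITA acts on class II promoters without binding DNA itself, through the RFX, CREB and NF-Y factors bound at the X and Y boxes. In the thymus, class II on cortical epithelium supports positive selection of CD4+ T cells, and class II on mTECs presents self peptides for deletion of autoreactive cells and for regulatory T cell development, with high surface levels marking mature mTECs.

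The libraries held 61102704 to 65907745 counts, and 18547 genes passed the filter on low counts. Counts of *Sirt6* itself were 622 in WT replicate 1 and 755 in WT replicate 2, beside 882 in replicate 1 and 835 in replicate 2 of the label *Sirt6*-/-. *Sirt6* was thus not lower under that label, with a log2 fold change of 0.37 (SE 0.32, 95% interval -0.43 to 1.18), so the genotype is given below as a label. A total over all exons may not show a deletion of some of them, and since the flanked exons are not known here, these counts do not by themselves check the labels. All 8 mTEC markers were detected in each library, with summed levels of 3650 to 3700 CPM (counts scaled to equal library size) in WT. In *Sirt6*-/- they summed to 4100 to 5277 CPM. *Cldn4* made the largest part of these sums, at 1438 to 2248 CPM. At an unadjusted p under 0.05 in edgeR, 3 of the 8 (*Epcam*, *Aire* and *Cd80*) were higher in *Sirt6*-/- and 0 lower. Over all genes, 5.27% were higher and 3.32% lower at that threshold. The markers *Cldn3* and *Fezf2* had log2 fold changes below 0, at -0.31 and -0.20. Of markers of other cells, dendritic cell genes summed to 118 to 128 CPM and B cell genes to 171 to 212 CPM over the 4 libraries, with the B cell gene *Pax5* at 0 in 1 library of each group. No dendritic cell gene of 7 and 1 B cell gene of 6 passed an unadjusted p of 0.05. *Siglech* made the largest part of the dendritic cell sum, at 57.5 to 80.0 CPM, and the median log2 fold change of the 7 was -0.20. The 4 cTEC genes summed to 266 to 477 CPM, with 1 higher in *Sirt6*-/-, and the 6 thymocyte genes to 303 to 654 CPM, with none passing. The 6 macrophage genes in the table summed to 5483 and 3174 CPM in WT and to 2018 and 2158 CPM in *Sirt6*-/-. Most of each sum came from *Lyz2*, at 4647 and 2815 CPM in WT and 1778 and 1906 CPM in *Sirt6*-/-. Of the 6 macrophage genes, 4 (*Cd68*, *Lyz2*, *C1qa* and *C1qb*) were lower at an unadjusted p under 0.05. *Ptprc*, which encodes the CD45 used to remove leukocytes in the sort, was detected at 264 to 433 CPM. In bulk RNA, fewer cells of a type and less RNA per cell cannot be told apart.

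Of the genes, 8 lie together in the class II region of chromosome 17 (GRCm38, the assembly of mm10, chr17:34092340-34316674), within 224.3 kb. *Ciita* lies on chromosome 16. RefSeq promoter windows of GRCm38.p6, from 250 bases before to 50 bases after a gene start, were matched to 7 of the 10 genes. The stretches below are shown because X and Y boxes are the elements through which CIITA acts. Capitals mark the Y box core GATTGG and the X box core ACNGATG, both searched on both strands, and each stretch is printed 5′ to 3′ on the strand of its gene. *H2-Eb2*, a further class II beta chain gene, is included because its counts differed between the groups (below).
H2-Eb1, chr17:34305771-34305814, plus strand: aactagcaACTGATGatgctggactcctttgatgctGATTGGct
H2-Eb2, chr17:34325538-34325581, plus strand: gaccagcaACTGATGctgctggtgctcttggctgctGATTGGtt
H2-DMb2, chr17:34145121-34145165, plus strand: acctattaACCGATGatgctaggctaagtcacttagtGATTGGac
H2-Aa, chr17:34287865-34287908, minus strand: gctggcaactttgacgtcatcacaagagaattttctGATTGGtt
H2-Ob, chr17:34238811-34238854, plus strand: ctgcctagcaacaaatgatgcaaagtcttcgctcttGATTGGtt
H2-Oa, chr17:34092299-34092342, plus strand: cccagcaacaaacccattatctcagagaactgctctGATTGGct

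The 7 matched genes had 8 windows, of which 7 held GATTGG, against 16.11% of all 32851 promoter windows, and 5 held ACNGATG, against 9.85%. The window without GATTGG was 1 of 2 for *H2-DMa*, whose other window held it. In *H2-Eb1*, *H2-DMb1* and *H2-DMb2* the X box core was followed by the Y box core with starts 28 or 29 bases apart. That order with 25 to 32 bases between starts, a range chosen after these positions were seen, was found in 11 windows (0.0335%) from 10 gene symbols. *H2-Eb1* and *H2-Eb2* had the same spacing of 28 bases. In *H2-Aa* and *H2-Oa* the match to ACNGATG lay outside the stretch printed, in *H2-Aa* on the opposite strand. The window of *H2-Ob* held no match to it. The string is short and exact, so a stretch without it may still hold an X box with other letters. A match is a description of the letters in the window and was not tested as a site.

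Class II transcripts were abundant in all 4 libraries. Genes of other cells were detected in the same libraries, with *Ptprc* at 264 to 433 CPM. The part of such cells in the levels of the 10 genes was not tested. Together the 10 genes held 5.90% and 6.02% of all transcripts in TPM (a level per transcript length) in WT and 6.32% and 5.32% in *Sirt6*-/-. *Cd74*, *H2-Ab1* and *H2-Aa* took the first 3 ranks by TPM in each library. *H2-DMb2* ranked from 13 to 19, *H2-Eb1* from 9 to 55, *H2-DMb1* from 128 to 168, *H2-DMa* from 208 to 356 and *H2-Oa* from 256 to 447. *H2-Ob* ranked from 786 to 1296 and *Ciita* from 3555 to 6869. Neighbours at the top of this order were not separated by their spread, since the TPM ranges of *Cd74*, *H2-Ab1* and *H2-Aa* overlapped, as did those of *H2-Eb1* and *H2-DMb2* and those of *H2-DMa* and *H2-Oa*.

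**Figure D1:**
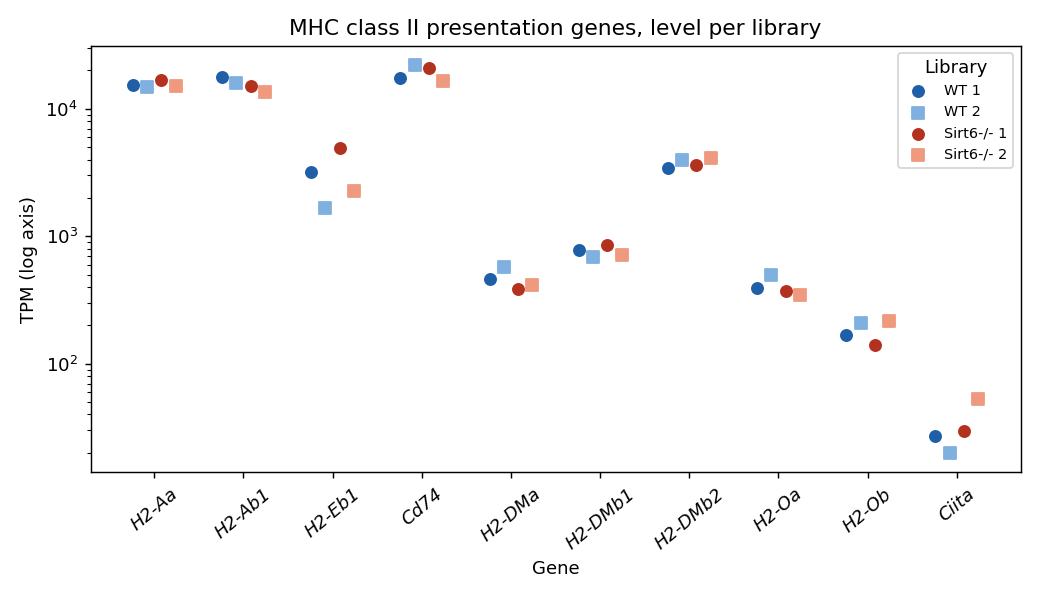
Level of each of the 10 genes in each library, in TPM on a log axis, with WT in blue and *Sirt6*-/- in red, replicate 1 as circles and replicate 2 as squares. The highest level is 21921 TPM, for *Cd74* in WT replicate 2, and the lowest is that of *Ciita* in the same library, and the libraries of a gene lie close together except for *H2-Eb1* and *Ciita*.

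To ask whether class II transcripts differed by label, all 18547 genes were fitted together with edgeR's quasi-likelihood test. None of the 10 genes passed an unadjusted p of 0.05 or an adjusted p of 0.05, where 8.58% of all genes passed the former and 0.00539% (1 gene) the latter. DESeq2 gave 1 of the 10 an unadjusted p under 0.05, namely *Ciita*, and none an adjusted p under 0.05, against 10.2% and 1.88% of the genes it tested. The fitted values were split, with 5 genes above 0 and 5 below, and their median log2 fold change was 0.0088 beside -0.0047 over all genes. With upper quartile scaling the medians were -0.070 for the 10 and -0.086 for all genes. The summed CPM of the 10 genes had a log2 ratio of -0.017. Groups did not overlap in CPM for 4 of the 10, which were *H2-Ab1*, *H2-DMa* and *H2-Oa* with lower values and *Ciita* with higher values in *Sirt6*-/-, while 41.9% of all genes had groups that did not overlap, 20.3% with lower and 21.6% with higher values in *Sirt6*-/-. With 2 libraries against 2, an exact permutation test of a single gene cannot go below p = 0.333. The summed macrophage genes, mostly *Lyz2*, were lower in *Sirt6*-/-, and the part of other cells in this comparison was not tested.

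**Figure D2:**
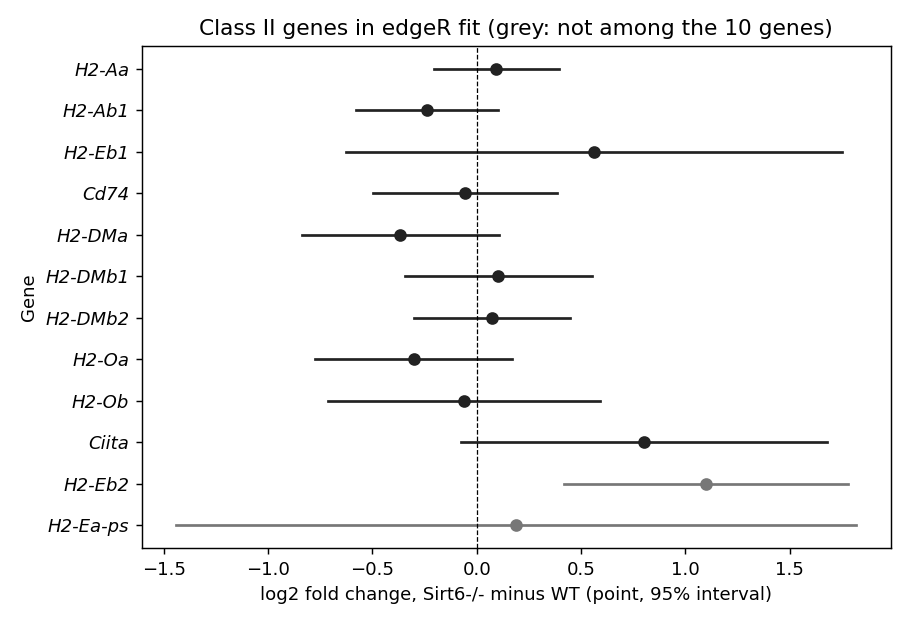
Log2 fold change of *Sirt6*-/- against WT from the edgeR fit for the 10 genes (black) and for *H2-Eb2* and *H2-Ea-ps* (grey), with 95% intervals as lines. The intervals of all 10 genes include 0, from the narrow one of *H2-Aa* (-0.21 to 0.39) to the wide one of *H2-Eb1* (-0.63 to 1.75), and that of *H2-Eb2* lies above 0.

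Of the classical chains, *H2-Aa* (ENSMUSG00000036594.15, chr17:34282744-34287823) encodes the I-A alpha chain. Its level was 15267 and 14864 TPM in WT and 16768 and 15196 TPM in *Sirt6*-/-. The 4 values lay close together and the groups overlapped. On the count scale, the log2 fold change was 0.09 (SE 0.12, adjusted p = 0.883, edgeR), with an interval of -0.21 to 0.39, the narrowest of the 10.

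*H2-Ab1* (ENSMUSG00000073421.6, chr17:34257689-34269419) encodes the I-A beta chain, the partner of *H2-Aa*. Its level was 17892 and 15846 TPM in WT and 15016 and 13467 TPM in *Sirt6*-/-. Both *Sirt6*-/- values were below both WT values, but by less than the test required, with a log2 fold change of -0.24 (SE 0.14, 95% interval -0.58 to 0.10, adjusted p = 0.687, edgeR). The ratio of the beta to the alpha transcript, in TPM, was 1.17 and 1.07 in WT and 0.895 and 0.886 in *Sirt6*-/-. In TPM, the beta transcript was thus the more abundant in both WT libraries and the alpha transcript in both *Sirt6*-/- libraries. Counts, which are not scaled to transcript length, also put *H2-Ab1* above *H2-Aa* in both WT libraries. In *Sirt6*-/- the counts were nearly level, at 496322 and 469932 for *H2-Ab1* and 496639 and 475157 for *H2-Aa*. No test was run on this ratio, which was not among the ratios planned. Over all genes, 41.9% had groups that did not overlap in CPM.

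*H2-Eb1* (ENSMUSG00000060586.11, chr17:34305867-34316674) encodes the I-E beta chain. C57BL/6 mice are known to lack surface I-E because their I-E alpha gene is not expressed as a functional chain. This beta chain would then lack its regular partner, which was not examined here. *H2-Eb1* varied more than any other of the 10 genes, with a 3.03-fold range of CPM over the 4 libraries, where *Ciita* had 2.67-fold and the rest 1.16- to 1.53-fold. Its level was 3217 and 1671 TPM in WT and 4943 and 2247 TPM in *Sirt6*-/-. Replicate 1 was the higher in both groups, by 0.99 in WT and 1.15 in *Sirt6*-/- on the log2 CPM scale, and the groups overlapped. The log2 fold change was 0.56 (SE 0.47, 95% interval -0.63 to 1.75, adjusted p = 0.794, edgeR). It was -0.12 without *Sirt6*-/- replicate 1 and 1.01 without *Sirt6*-/- replicate 2, and in the latter fit the unadjusted p was 0.0396 and the adjusted p 0.600. Over all alternatives the adjusted p ranged from 0.583 to 0.9996. A fit with the replicate number as a block gave 0.53 (SE 0.13, unadjusted p = 0.0140, adjusted p = 0.777), and whether the numbers mark a shared origin is not stated.

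The remaining class II chain genes were measured as companions. *H2-Ea-ps* is the I-E alpha gene, annotated as a polymorphic pseudogene at chr17:34341959-34344645, and its level was 103 and 194 TPM in WT and 71.1 and 264 TPM in *Sirt6*-/-. Reads of this gene were thus present in every library, and whether they yield a functional chain was not tested. Here replicate 2 was the higher in both groups, by 0.87 and 1.88 on the log2 CPM scale, the opposite of *H2-Eb1*. The fold change was within the spread, at 0.19 on the log2 scale (SE 0.65), and went from -1.06 to 0.85 as single libraries were left out.

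*H2-Eb2* (ENSMUSG00000067341.6, chr17:34325665-34341412), a beta chain gene next to *H2-Eb1*, was the only one of these chain genes with an unadjusted p under 0.05. In WT its counts were 12504 and 14420 (123 and 150 TPM), and in *Sirt6*-/- they were 33357 and 21924 (356 and 222 TPM). Both *Sirt6*-/- libraries were above both WT libraries. The log2 fold change was 1.10 (SE 0.27, 95% interval 0.42 to 1.78, unadjusted p = 0.00833, adjusted p = 0.541, edgeR), and DESeq2 gave an adjusted p of 0.0276. All 12 alternatives gave an unadjusted p under 0.05, with log2 fold changes of 0.71 to 1.39 as single libraries were left out and adjusted p-values of 0.0276 to 0.9996. The longest transcripts of *H2-Eb1* and *H2-Eb2* were 78.83% identical over 770 aligned bases and shared no word of 50 bases. *H2-Eb2* counts put *Sirt6*-/- replicate 1 highest, as did those of *H2-Eb1*, but unlike *H2-Eb1* they did not put WT replicate 1 above WT replicate 2.

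The invariant chain gene *Cd74* (ENSMUSG00000024610.15, chr18:60803848-60812652) was first or second by TPM in each library. Its level was 17410 and 21921 TPM in WT and 21061 and 16444 TPM in *Sirt6*-/-. The lowest and the second highest value were both from *Sirt6*-/-, so the groups overlapped. The log2 fold change was -0.055 (SE 0.18, 95% interval -0.50 to 0.39, adjusted p = 0.960, edgeR), and its sign turned as single libraries were left out, from -0.25 to 0.099. The ratio of *Cd74* to *H2-Aa*, in TPM, was 1.14 and 1.47 in WT and 1.26 and 1.08 in *Sirt6*-/-.

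The H2-DM genes encode the peptide exchange factor, in which the alpha chain pairs with a beta chain from either of a pair of adjacent genes. *H2-DMa* (ENSMUSG00000037649.10, chr17:34119541-34139101) had 462 and 578 TPM in WT and 385 and 416 TPM in *Sirt6*-/-. Both *Sirt6*-/- values were below both WT values, with a log2 fold change of -0.37 (SE 0.19, 95% interval -0.84 to 0.10, adjusted p = 0.649, edgeR), and it kept its sign in all 12 alternatives without passing the test in any. Of its exonic bases, 10.44% overlap *Brd2* on the opposite strand, and *Brd2* was higher in *Sirt6*-/-, at 0.87 (SE 0.20, unadjusted p = 0.00560, adjusted p = 0.541, edgeR). Whether counting used strand is not given in the sources used here, so reads of that stretch could fall to either gene.

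*H2-DMb2* (ENSMUSG00000037548.15, chr17:34143307-34151555) was the most abundant H2-DM transcript, at 3425 and 3947 TPM in WT and 3595 and 4105 TPM in *Sirt6*-/-. *H2-DMb1* (ENSMUSG00000079547.4, chr17:34153072-34160230) had 782 and 682 TPM in WT and 849 and 715 TPM in *Sirt6*-/-. The groups overlapped for both genes, and the replicates went opposite ways, with replicate 1 the lower for *H2-DMb2* and the higher for *H2-DMb1*. Their log2 fold changes were 0.073 (SE 0.15, 95% interval -0.30 to 0.45), turning to -0.016 with library size alone as the scaling, and 0.10 (SE 0.18, 95% interval -0.35 to 0.55). The ratio of *H2-DMb2* to *H2-DMb1*, in TPM, was 4.38 and 5.79 in WT and 4.23 and 5.74 in *Sirt6*-/-, so that it followed the replicate number and not the label. The transcripts of the pair were 94.3% identical over 1211 aligned bases, and 27.2% of the 50-base words of *H2-DMb1* occur in *H2-DMb2*, so the division of reads between them is uncertain.

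H2-O, the modulator of H2-DM, is encoded by *H2-Oa* and *H2-Ob*. *H2-Oa* (ENSMUSG00000024334.9, chr17:34092340-34095234) had 391 and 496 TPM in WT and 369 and 345 TPM in *Sirt6*-/-. Both *Sirt6*-/- values were the lower, with a log2 fold change of -0.30 (SE 0.19, 95% interval -0.77 to 0.17, adjusted p = 0.714, edgeR). Of its exonic bases, 22.81% overlap *BC051537* on the opposite strand, with the same doubt on strand as for *H2-DMa*. *H2-Ob* (ENSMUSG00000041538.16, chr17:34238903-34254414) had 167 and 210 TPM in WT and 141 and 218 TPM in *Sirt6*-/-. Here the lowest and the highest value were both from *Sirt6*-/-, and the log2 fold change was -0.060 (SE 0.26, 95% interval -0.71 to 0.59), turning from -0.42 to 0.22 as single libraries were left out. The ratio of the summed H2-O to the summed H2-DM transcripts, in TPM, was 0.120 and 0.136 in WT and 0.106 and 0.107 in *Sirt6*-/-, lower in both *Sirt6*-/- libraries and not tested. The H2-DM sum was mostly *H2-DMb2*. The division of reads between it and *H2-DMb1* is uncertain, though both genes enter that sum. The ratio of *H2-Oa* to *H2-DMa*, in TPM, overlapped between the groups, at 0.846 and 0.858 in WT and 0.959 and 0.828 in *Sirt6*-/-.

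*Ciita* (ENSMUSG00000022504.10, chr16:10480059-10528418), the transactivator on which class II transcription depends, was the least abundant of the 10 and had the largest fitted change. It had 4322 counts in replicate 1 and 2996 in replicate 2 of WT, against 4312 in replicate 1 and 8072 in replicate 2 of *Sirt6*-/-. WT replicate 1 and *Sirt6*-/- replicate 1 were nearly level, at 27.2 and 29.6 TPM, and the distance between the groups came from WT replicate 2, the lowest, and *Sirt6*-/- replicate 2, the highest at 52.9 TPM. The log2 fold change was 0.80 (SE 0.35, 95% interval -0.075 to 1.68, adjusted p = 0.613, edgeR). It was 0.32 without *Sirt6*-/- replicate 2 and 1.16 without *Sirt6*-/- replicate 1, and in the latter fit the unadjusted p was 0.0179 and the adjusted p 0.9996. Of its exonic bases, 3.45% overlap *Dexi* on the opposite strand. DESeq2 gave 0.79 with an unadjusted p of 0.0321 and an adjusted p of 0.362, and over all alternatives the adjusted p ranged from 0.362 to 0.9996. The library with the highest *Ciita*, *Sirt6*-/- replicate 2, had the lowest levels of *Cd74*, *H2-Ab1* and *H2-Oa* among the 4 and the lowest share of TPM in the 10 genes, but also the highest levels of *H2-DMb2* and *H2-Ob*.

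**Figure D3:**
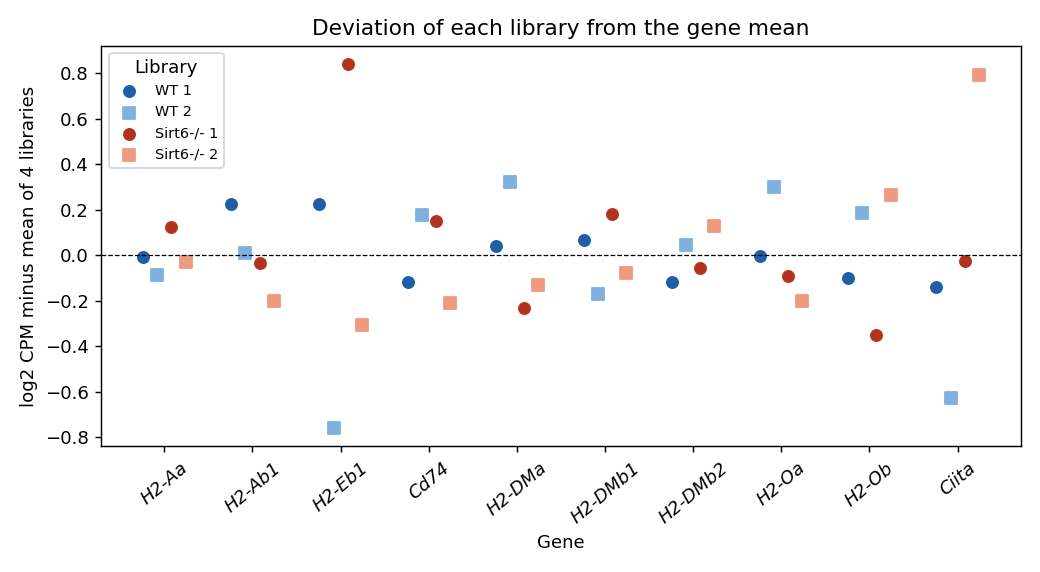
Deviation of each library from the mean of the 4 libraries of a gene, in log2 CPM, with WT in blue, *Sirt6*-/- in red, replicate 1 as circles and replicate 2 as squares. *H2-Eb1* and *Ciita* spread widest, circles lie above squares in both groups for *H2-Aa*, *H2-Ab1*, *H2-Eb1* and *H2-DMb1*, and squares lie above circles in both for *H2-DMa*, *H2-DMb2* and *H2-Ob*.

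Across the 10 genes, replicate 1 was above replicate 2 in both groups for 4 genes and below it in both for 3, where 24.6% and 23.5% of all genes did so. In each library some of the 10 genes lay above their mean over the libraries and some below, although 8 of them are neighbours. The fold changes under other settings stayed near the edgeR values while all 4 libraries were used, and moved most for *H2-Eb1* and *Ciita* when 1 library was left out.

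**Figure D4:**
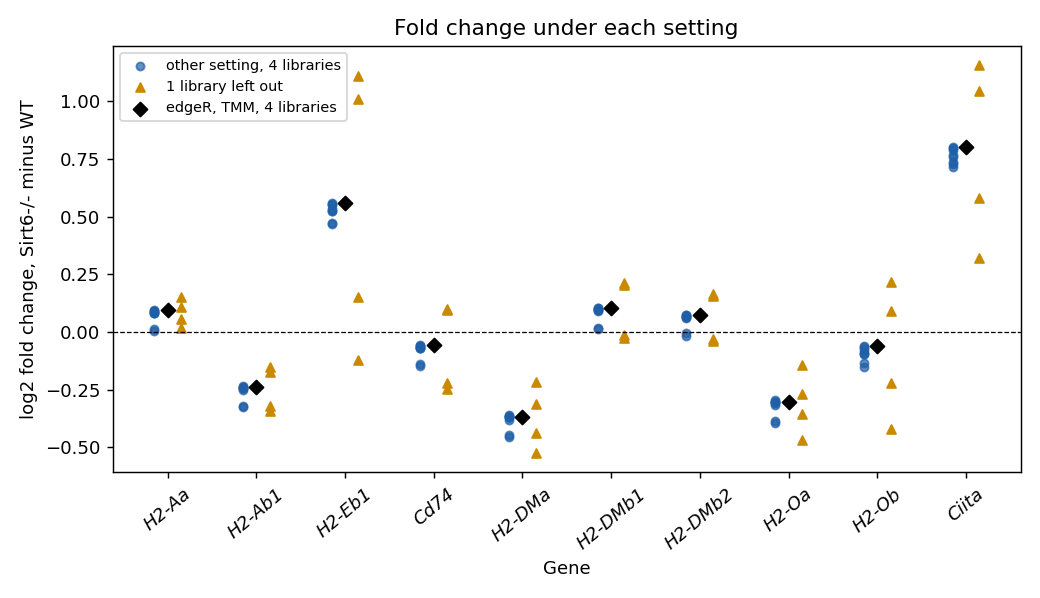
Log2 fold change of *Sirt6*-/- against WT for the 10 genes in the edgeR fit (black diamonds), under 8 other settings on the 4 libraries (blue circles) and with 1 library left out (orange triangles). *H2-Ab1*, *H2-DMa* and *H2-Oa* stay below 0 and *H2-Aa* and *Ciita* above 0 throughout, and the left-out values of *H2-Eb1* run from -0.12 to 1.11.

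To place these genes in their pathway, 46 of 49 listed companion genes, in 6 groups, were found in the table and read from the same fit. At an unadjusted p under 0.05, 5 were higher in *Sirt6*-/-, 3 were lower and 38 did not pass, where 5.27% of all genes were higher and 3.32% lower. None passed an adjusted p of 0.05 in edgeR, and DESeq2 gave 5 of them (*H2-Eb2*, *Lgmn*, *Sqstm1*, *Cd80* and *Spib*) an adjusted p under 0.05. The median log2 fold change of the 46 was 0.0050.

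Among 14 regulators of class II transcription, namely the X and Y box factors, their coactivators and the interferon gamma pathway, none was higher and 1 was lower, with a median log2 fold change of -0.13. The one was *Nfyc*, a subunit of the Y box factor NF-Y, for which WT replicates 1 and 2 gave 1853 and 160 counts and the *Sirt6*-/- replicates 148 and 99. WT replicate 1 stood apart from the other 3 libraries, and the log2 fold change went from -2.95 (SE 1.12) to -0.36 without it. It passed an unadjusted p of 0.05 in 6 of 12 alternatives, and in none that left out WT replicate 1 or either *Sirt6*-/- library. *Creb1*, whose product binds the X box region, had the largest value, at 0.78 with an interval that included 0, and it was -0.17 without *Sirt6*-/- replicate 1 and 1.34 without *Sirt6*-/- replicate 2, where its unadjusted p was under 0.05.

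Among 8 genes of endosomal proteolysis and reduction, whose proteases trim the invariant chain and cut antigens, 2 were lower and none higher, with a median of -0.27. *Lgmn*, an asparagine endopeptidase, had 237 and 132 TPM in WT and 58.7 and 85.8 TPM in *Sirt6*-/-. Both *Sirt6*-/- values were below both WT values, with a log2 fold change of -1.35 (SE 0.37, adjusted p = 0.541, edgeR). *Ctsb*, the cysteine protease cathepsin B, had 481 and 315 TPM in WT and 239 and 243 TPM in *Sirt6*-/-, with a log2 fold change of -0.72 (SE 0.24, adjusted p = 0.548, edgeR). Both were highest in WT replicate 1, and without that library their log2 fold changes were -0.86 and -0.38 and no longer passed an unadjusted p of 0.05. *Lgmn* also lost it without *Sirt6*-/- replicate 1, and *Ctsb* without either *Sirt6*-/- library. The summed level of the 6 macrophage genes, mostly *Lyz2*, was likewise highest in WT replicate 1 (5483 CPM) and lower in *Sirt6*-/-. The median log2 fold change of these macrophage genes was -1.13, and their part in these results was not tested. The largest value of the group was *Ctsh*, an aminopeptidase of lysosomes, at 0.43.

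Of 8 genes of class II turnover and vesicle traffic, none passed in either direction and the median was 0.00073. They ran from *March1*, a ubiquitin ligase that removes class II from the surface, at -1.18 to *Arl8b*, a small GTPase of lysosome movement, at 0.39. *March1* had 2008 counts in WT replicate 1 and 428 to 614 in the other 3 libraries, and its log2 fold change was 0.24 without WT replicate 1.

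Of 7 autophagy genes, which bring cytosolic proteins to class II compartments, 1 was higher and none lower, with a median of 0.044. It was *Sqstm1*, the cargo receptor p62, with 1267 and 1362 TPM in WT and 2019 and 2100 TPM in *Sirt6*-/-. The replicates lay close together and the groups did not overlap, with a log2 fold change of 0.66 (SE 0.13). *Becn1*, of the initiation complex, had the lowest value of the group, at -0.18.

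Of 7 maturation genes of mTECs, 3 were higher and none lower, with a median of 0.48, where 5.27% of all genes were higher. The list was chosen with earlier results of these data known, so this count and median are a description only. *Cd80*, a costimulatory ligand that accompanies high surface class II on mature mTECs, had 87.8 and 92.1 TPM in WT and 158 and 186 TPM in *Sirt6*-/-. *Aire*, the regulator of tissue-restricted antigens, had a log2 fold change of 0.65 (SE 0.18), beside 0.94 (SE 0.20) for *Cd80* and 1.13 (SE 0.14) for *Spib*, an ETS factor of mTECs. *Aire* lost its unadjusted p under 0.05 without WT replicate 1 and without *Sirt6*-/- replicate 2. *Fezf2*, a regulator of further tissue-restricted antigens, was the lowest at -0.20 and went from -0.83 to 0.24 as single libraries were left out. *Epcam*, the epithelial marker used in the sort, was also higher, at 0.48 on the log2 scale. The summed macrophage genes, mostly *Lyz2*, were lower, at 2018 and 2158 CPM in *Sirt6*-/- against 5483 and 3174 CPM in WT. The part of *Epcam* and of the macrophage genes in the maturation result was not tested. Whether the class II genes differed from these maturation genes in their response was not tested.

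**Figure D5:**
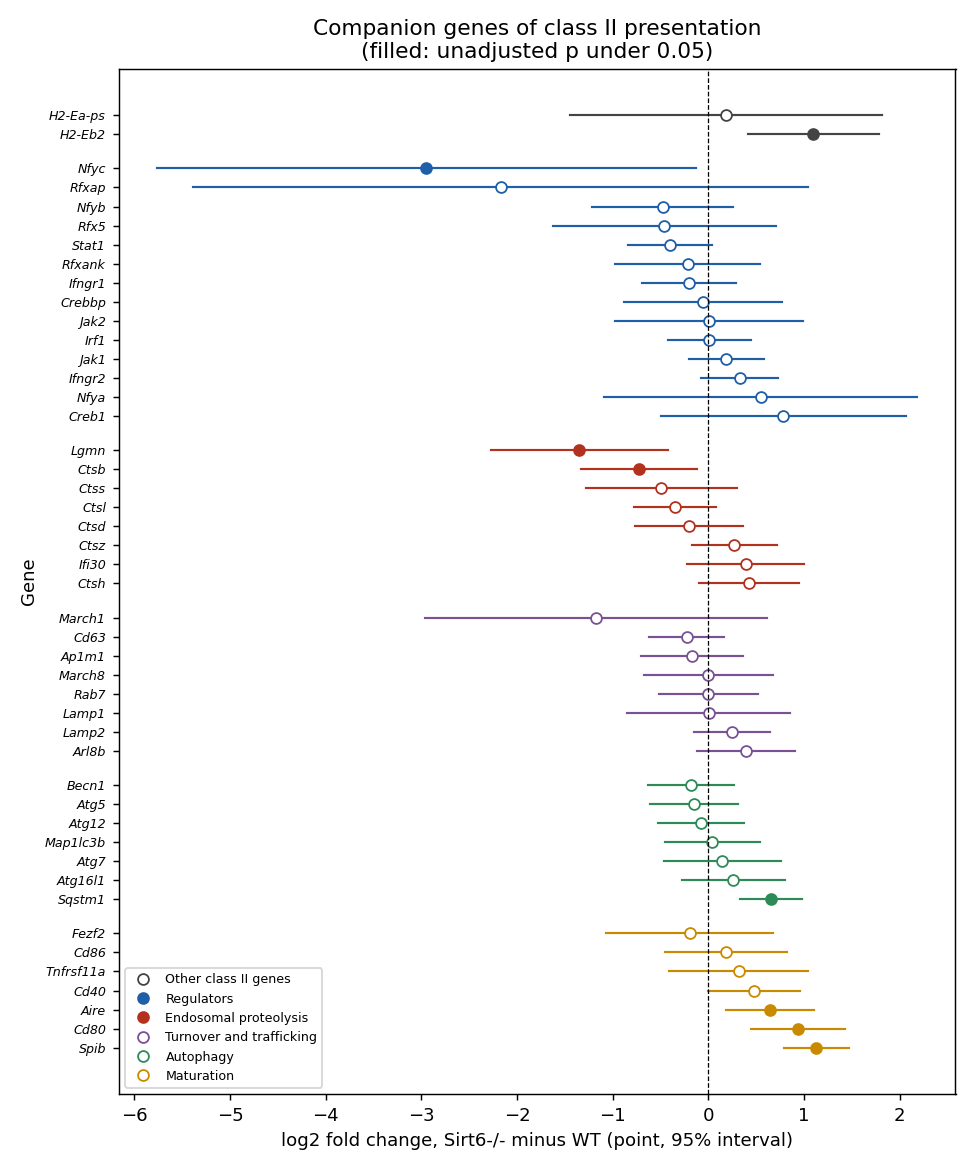
Log2 fold change of *Sirt6*-/- against WT with 95% intervals for the 46 companion genes in their 6 groups, from the edgeR fit, with filled points where the unadjusted p is under 0.05. The 5 filled points to the right of 0 are *H2-Eb2*, *Sqstm1*, *Aire*, *Cd80* and *Spib*, and the 3 to the left are *Nfyc*, *Lgmn* and *Ctsb*.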

How the data were processed

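RNA from sorted mTECs of WT and *Sirt6*-/- mice was sequenced by the study in 2 libraries a group. Per the labels and the study's methods, the authors used Trim Galore for trimming, HISAT2 2.1.0 for alignment to mm10 and StringTie 1.3.3 for quantification. The annotation and the strand setting are not given in the sources used here. They deposited whole-number counts without normalization and, per library, StringTie TPM values, whose column total was left out here. The precision of each value is limited by the 2 libraries a group more than by depth.

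All genes were fitted on the deposited counts with edgeR 4.0.16 in R 4.3.3 (TMM, filterByExpr set to min.count 10 and min.total.count 15, glmQLFTest), with Benjamini-Hochberg adjustment over 18547 genes at 0.05. The biological coefficient of variation was 0.557, and TMM factors lay between 0.966 and 1.04. Log2 CPM used a prior count of 2 for the correlation of deviations between replicates. The log2 CPM deviations and replicate differences shown used no prior count. The procedure was run on simulated data whose planted changes were all larger than those fitted for the 10 genes. That run does not show the power to detect changes of the size fitted for these genes. No pair of libraries was within sampling noise of each other.

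Positions and exon overlaps came from GENCODE on GRCm38, and promoters from RefSeq GRCm38.p6. The text names the 10 genes, *Sirt6*, companions past an unadjusted p of 0.05 and the largest and smallest value of each companion group, and markers of cell types as sums. *Brd2*, *BC051537*, *Dexi*, *Epcam*, *Cldn3*, *Cldn4*, *Siglech*, *Pax5*, *Ptprc* and the 4 macrophage genes are named, after their values were seen, beside the values they touch. The members, the companion lists and the marker lists were chosen with earlier results of these data known.

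Alternatives were DESeq2 1.42.0, no filter, the authors' filter of TPM over 0.1, upper quartile or library size scaling, the replicate number as a block, limma 3.58.1 on log2 TPM with a pseudocount of 1 or 0.1, and leaving out each library. The median of the 10 genes under each setting was added after the data were seen.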

Additional observations from a re-analysis of the deposited data

How the results depend on the processing

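With all 4 libraries, 76 of 80 combinations of gene and alternative kept the direction and the side of the unadjusted threshold. The exceptions were *H2-Eb1* under the replicate block (0.53, now past 0.05), *Ciita* under DESeq2 (0.79, now past 0.05), and *H2-DMb2*, which turned to -0.0056 with upper quartile scaling and to -0.016 with library size alone. DESeq2 and the block thus each called 1 of the 10 genes. The replicate numbers do not show a pairing (correlation of deviations -0.054 over genes, with 2 pairs only), and the block called 1146 genes against 1592. With 1 library left out, where the lone library is assumed to vary like the others, 9 of 40 values turned sign. The ranges were -0.12 to 1.11 for *H2-Eb1*, -0.25 to 0.099 for *Cd74*, -0.027 to 0.21 for *H2-DMb1*, -0.038 to 0.16 for *H2-DMb2*, -0.42 to 0.22 for *H2-Ob* and 0.32 to 1.16 for *Ciita*. The count called among the 10 went from 0 to 1 and the companions called lower from 0 to 6, and these were 5 with upper quartile scaling and 5 with library size alone. The genes called among all ranged from 735, without *Sirt6*-/- replicate 1, to 1762. The median of the 10 genes turned to -0.058 without *H2-DMb1* and *H2-DMb2*, to -0.070 with upper quartile scaling, to -0.081 with library size alone, and ran from -0.090 to 0.074 with 1 library left out. Those scalings split all called genes into 751 higher and 800 lower, and 721 higher and 838 lower, against 977 and 615. The causes were not tested. Depth was not limiting for any of the 10 genes, each of which had 2996 counts or more in every library.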

Other observations

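Inside the chromosome 17 interval that holds 8 of the class II genes, 5 other genes were tested, 1 of them higher and 0 lower at an unadjusted p under 0.05. *Psmb8* and *Psmb9*, subunits of the immunoproteasome, had log2 fold changes of -0.0093 (SE 0.24) and -0.20 (SE 0.19). *Tap1* and *Tap2*, which encode the peptide transporter of the class I pathway, had 0.13 (SE 0.18) and -0.12 (SE 0.18). The one higher was *Brd2*, a chromatin reader, at 0.87 (SE 0.20). These 5 were named for their position, after their values were seen.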
